A study of Populus tremula x Populus alba with 3 samples.

Results

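LHY and SEP1 are 2 of the 577 poplar genes that the study listed as both hypermethylated and changed in expression in buds of PtaDML10 RNA interference lines. They were chosen by identifier, Potri.002G180800 for the homologue of LATE ELONGATED HYPOCOTYL and Potri.008G098400 for the homologue of SEPALLATA1, because they stand for seasonal timing and for the MADS-box family among the listed genes. Both names come from the Arabidopsis locus paired with each gene in the deposited tables.

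The plants were hybrid poplar, Populus tremula x Populus alba, all of INRA clone 717-1B4. Lines KD2 and KD5 carried RNA interference against PtaDML10 and were set against the wild type (WT). PtaDML10 is a DEMETER-like DNA glycosylase, an enzyme class that cuts 5-methylcytosine out of DNA. All 3 genotypes had the same treatment, with 4 weeks of long days (16 h light, 21 °C), 12 weeks of short days (8 h light, 19 °C) and 4 weeks of short days at 4 °C. Apical buds still at stage 0 were taken from 15 plants per genotype, 15 buds in all, and pooled into 1 library per genotype for whole genome bisulfite sequencing. The promoter driving the RNA interference is not given in the sources used here, and a difference between KD2 and KD5 would be a difference between single libraries. The tables used here list changed genes only, so neither bud markers nor the level of PtaDML10 could be checked.

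LHY encodes a MYB-like transcription factor of the central circadian oscillator. In Arabidopsis it acts in the morning beside its close relative CCA1 and represses evening genes such as TOC1. In poplar, LHY genes have been tied to freezing tolerance and to the timing of bud burst. SEP1 encodes a class E floral MADS-box protein. In Arabidopsis the SEPALLATA proteins join other MADS-box factors in the complexes that specify floral organs, and the K-box of these proteins mediates contacts between partners. Plant DNA is methylated in CG, CHG and CHH contexts, where H is A, C or T. CG methylation is common within transcribed genes, while CHG methylation in plants is best known from transposons and silenced sequence. DEMETER-like enzymes can act in all of these contexts.

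The values are the authors' own, in 6 tables of genes, 3 for promoters and 3 for transcribed regions, with 1 table per context in each. No value per library, no sequencing depth and no coverage per region was used, so no spread between samples can be given for either gene. The 1 library per genotype is a bisulfite library. The number of samples behind the expression values is not given in the sources used here. A gene carries 1 logFC and 1 logCPM for the knockdowns against WT. Their log base is not stated and is taken here as 2. The direction of logFC is not stated either, so it is given as positive or negative, and neither gene can be called induced or repressed. Every listed gene had an FDR under 0.05, and the highest was 0.0499.

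LHY was listed once, for a CG region in its transcribed part, and had a negative logFC. In the authors' deposited table its logFC was -0.80, with a logCPM of 4.44, a p-value of 0.00163 and an FDR of 0.0360. Read on a log2 scale, that logFC is a 1.74-fold difference. LHY was in neither the CHG nor the CHH table of transcribed regions and in 0 of the 3 promoter tables. Absence from a table says that the gene did not pass the authors' thresholds there, not that its methylation was equal in knockdown and WT buds.

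SEP1 was listed once as well, for a CHG region in its transcribed part, and had a positive logFC. The authors' deposited table gave it a logFC of 1.81, a logCPM of 1.91, a p-value of 0.00106 and an FDR of 0.0269. On a log2 scale this is a 3.51-fold difference. It was in neither the CG nor the CHH table of transcribed regions and in 0 of the 3 promoter tables. The transcribed region tables hold no methylation percentage, so the size and sign of the methylation difference in KD2 and in KD5 cannot be read for either gene. That it was a gain in the knockdowns rests on the tables' title lines, and the promoter tables, whose title lines also say hypermethylated, list negative differences only without stating which genotype was subtracted.

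A listing in a single table was the usual case. Of all 577 genes, 71.6% were in 1 table only, and 85.6% were in no promoter table. LHY shared its exact listing, transcribed region in CG alone, with 257 other genes, and SEP1 shared transcribed region in CHG alone with 66 others. Of all listed genes, 51.0% had a negative and 49.0% a positive logFC, so the opposite signs of LHY and SEP1 sit in a near-even background. In the CG table of transcribed regions 44.8% of genes had a negative logFC, as LHY did. Among genes of the CHG counterpart 53.9% had a positive logFC, as SEP1 did. Among the 66 other genes listed for CHG in the transcribed region alone, 25 had a positive logFC (37.9%). Among the 257 others of the CG listing of LHY, 123 had a negative one (47.9%).

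**Figure D1:**
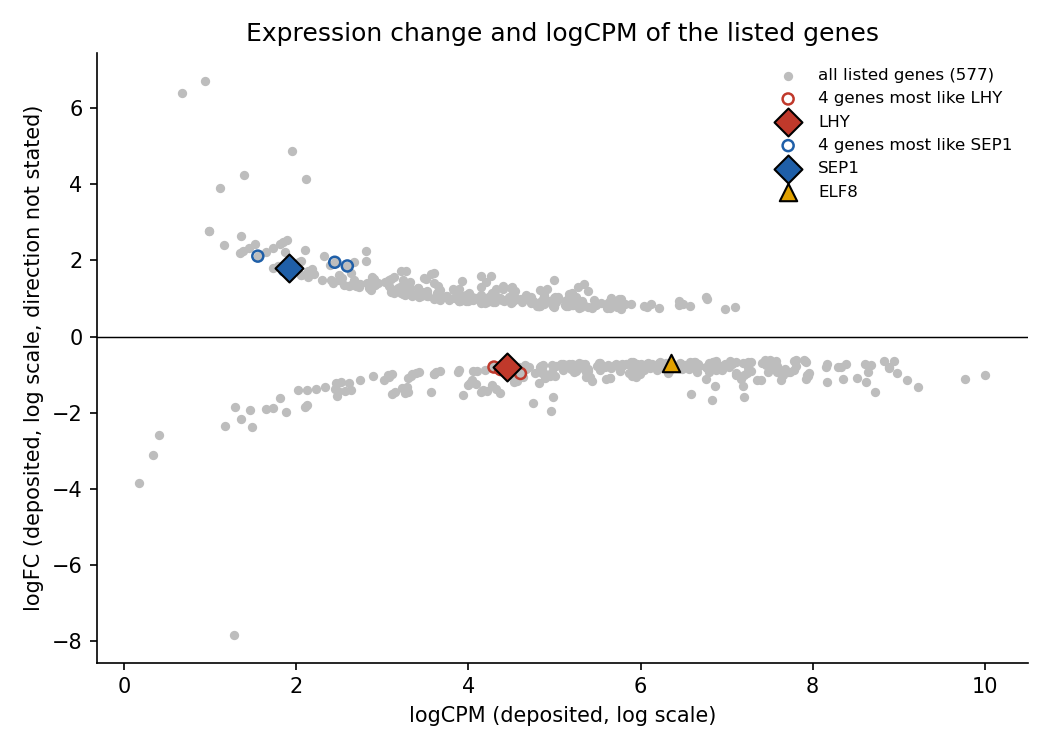
Deposited logFC (vertical axis, log scale, direction not stated) against deposited logCPM (horizontal axis, log scale) for the 577 listed genes, 1 point a gene, with LHY, SEP1 and ELF8 marked and open circles for the 4 genes most like each of LHY and SEP1. LHY lies at a logFC of -0.80, with 181 of the 293 other negative genes farther from 0, and SEP1 lies at 1.81 among the genes of low logCPM. The band around 0 is empty because the smallest listed absolute logFC was 0.62, and unlisted genes are not shown.

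The region listed for LHY touched coding segment 3, near the start of the gene. The LHY gene spans 8870 bases on the plus strand of chromosome 2 (14108136 to 14117005, coordinates as in the deposited table, whose gene models carry a Phytozome version 10 tag; the genome build is not given in the sources used here). Coding segment 3 is 62 bases long (14109583 to 14109644), begins 1447 bases after the start of the gene span and holds 20 whole codons by its reading phase. All 6 gene models of LHY in the table contain this segment under the same number. Neither a 5' UTR nor a 3' UTR was listed for LHY. Features in these tables are read here as those that the methylated region overlaps, since the region's own ends are not among the columns used.

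The features listed for SEP1 lay at the end of the gene. The SEP1 gene spans 6922 bases on the plus strand of chromosome 8 (6159271 to 6166192, same table conventions). Coding segment 7 (6165585 to 6165715, 131 bases), coding segment 8 (6165823 to 6165907, 85 bases) and the 3' UTR (6165908 to 6166192, 285 bases) were listed, each in both gene models. Segment 8 abuts the 3' UTR, so it is the last coding segment and ends the reading frame. The listed features lie within the last 608 bases of the gene, and 107 bases separate the coding segments. One region over all of this stretch and several smaller ones would give the same listing.

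**Figure D2:**
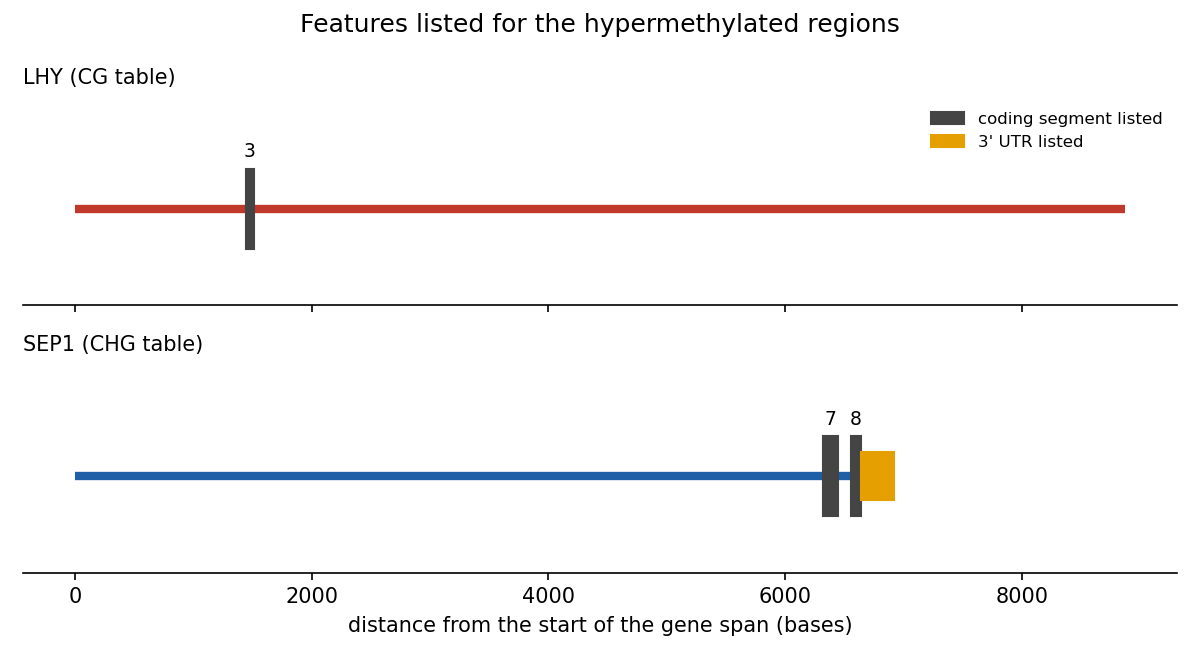
Features listed for LHY in the CG table (top) and for SEP1 in the CHG table (bottom), drawn to scale against the distance in bases from the start of each gene span; dark blocks are coding segments with their numbers, the orange block is the 3' UTR, and other exons are not drawn because the tables list only the features hit. The LHY segment starts 1447 bases into a span of 8870 bases, while the SEP1 features lie within the last 608 of 6922 bases.

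Coding sequence without UTR, the pattern of LHY, was the pattern of 163 of the 388 genes in the CG table (42.0%). Of the 271 CG genes with coding sequence listed, 25 had segment 3 and no other segment number, LHY among them (9.23%), and 151 had a single segment number (55.7%). The midpoint of the listed coding segment of LHY lay at 16.7% of the gene span, counted from the 5' end. The median of this position was 50.1% over the 259 CG genes with a value, and in 227 of the 258 others the listed coding sequence lay nearer the 3' end than in LHY (88.0%).

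Coding sequence together with the 3' UTR, the pattern of SEP1, was found for 31 of the 178 genes in the CHG table (17.4%). A 3' UTR was listed for 52 of them (29.2%). Of the 111 CHG genes with coding sequence listed, 3 had exactly segments 7 and 8, SEP1 included. The midpoint of the SEP1 coding segments lay at 93.5% of the gene span, against a median of 51.5% over 107 CHG genes. In 0 of the 106 others with a midpoint did the listed coding sequence lie nearer the 3' end, and the highest value among them was 91.7%. In the CG table midpoints reached 97.7%. Genes listed for a UTR alone have no midpoint in either table and are left out. Among these are CHG genes listed for the 3' UTR only, so SEP1 cannot be called the listing nearest the 3' end. The midpoint positions include introns and UTRs in the span, and they describe the part of a gene hit, not how strongly it was methylated.

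**Figure D3:**
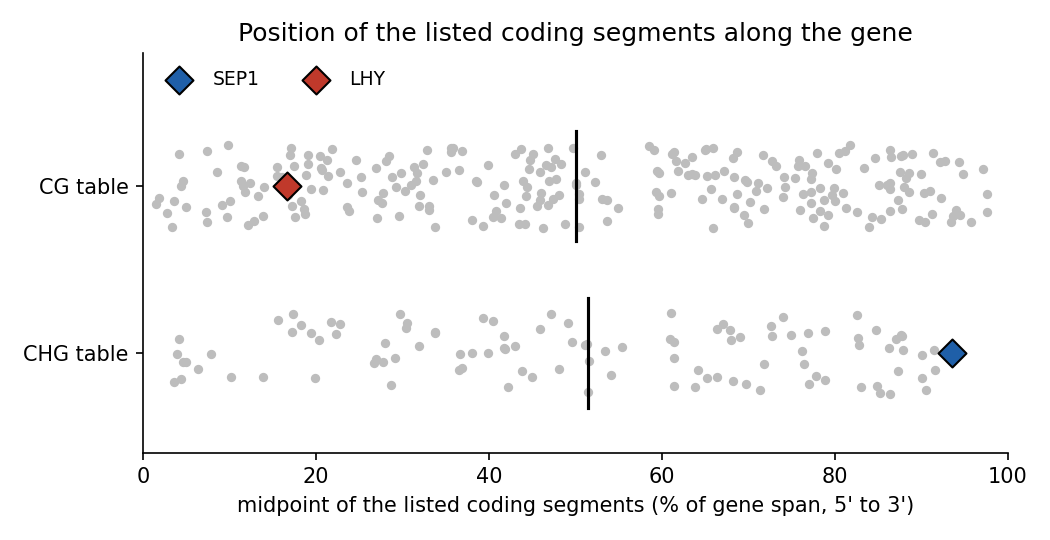
Midpoint of the listed coding segments as a percentage of the gene span, from the 5' end (0) to the 3' end (100), for genes of the CG and CHG tables of transcribed regions; grey points are genes with vertical jitter only, black lines are medians, and diamonds are LHY and SEP1. LHY sits at 16.7% and SEP1 at 93.5%, on either side of medians of 50.1% and 51.5%. Genes with no coding sequence listed are not drawn.

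By size of expression change, SEP1 stood near the top of the listed genes and LHY below their median. By absolute logFC, 445 of the 576 other listed genes exceeded LHY (77.3%), whereas 46 of 576 exceeded SEP1 (7.99%). The median absolute logFC of all listed genes was 0.99, and 47.8% of them reached an absolute logFC of 1, a size that SEP1 passed and LHY did not. Both genes were among the weaker calls by FDR: 486 of 576 genes had a smaller FDR than LHY (84.4%) and 415 a smaller FDR than SEP1 (72.0%).

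The rank of SEP1 depended on the genes it was set against. Absolute logFC was larger in weakly expressed genes, with a median of 1.61 in the lowest logCPM quintile, to which SEP1 belongs, and 0.93 in the middle quintile, which holds LHY. The smallest listed absolute logFC was 0.99 in the lowest quintile and 0.71 in the middle one. Within its own quintile SEP1 was exceeded by 45 of 115 genes (39.1%) and LHY by 95 of 114 (83.3%). SEP1 therefore ranked high among all listed genes but nearer the middle among genes of similar logCPM. The sign shares in both quintiles differed from those of all listed genes. A positive logFC was held by 80 of the 115 other genes in the quintile of SEP1 (69.6%), beside 49.0% over all listed genes. A negative one was held by 47 of 114 in that of LHY (41.2%), beside 51.0% over all. Positive genes were thus the majority in both quintiles.

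**Figure D4:**
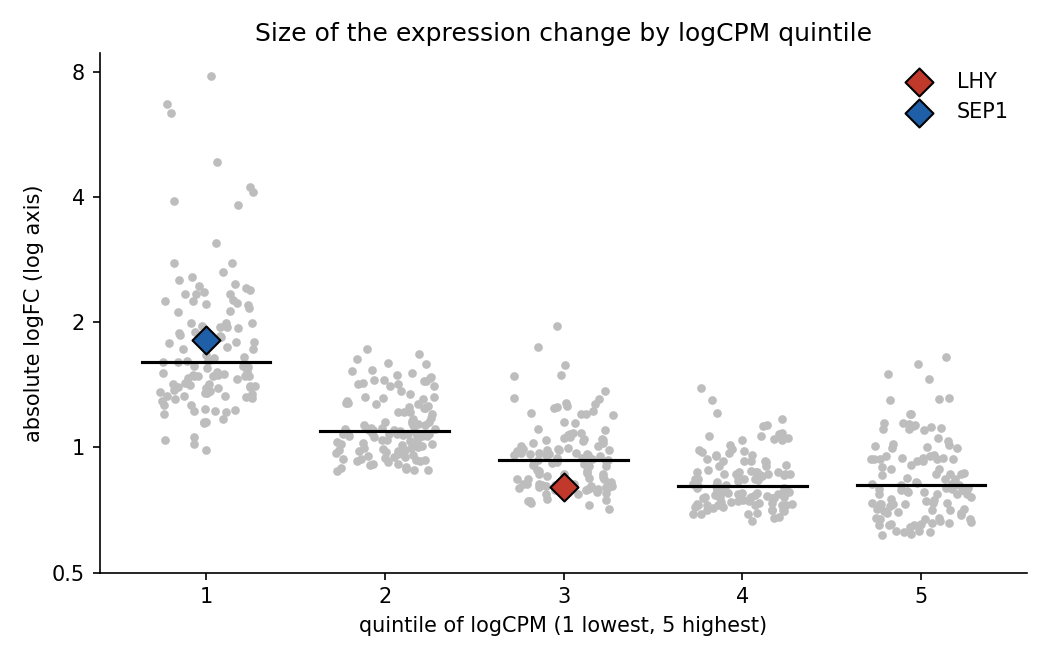
Absolute logFC (log axis) of the 577 listed genes by quintile of logCPM, from 1 (lowest) to 5 (highest); grey points are genes with horizontal jitter only, black lines are quintile medians, and diamonds are LHY and SEP1. SEP1 is near the median of 1.61 of its quintile, and LHY, at an absolute logFC of 0.80, is below the median of 0.93 of its own.

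Per length, SEP1 was among the most weakly expressed of the listed genes. With logCPM reduced by the log2 of the gene span in kb, the level was -0.88 for SEP1 and 1.29 for LHY, a difference of -2.17 on the log2 scale for SEP1 minus LHY. The median level on this scale was 2.57 over the 524 genes with a span, and 516 of the other 523 genes were above SEP1 (98.7%). Above LHY were 387 of 523 (74.0%). The span includes introns, and both genes are long: 55 of 523 genes had a longer span than LHY and 113 a longer span than SEP1. How the counting treated reads shared by close copies is not given in the sources used here, and poplar carries close copies of both genes from an ancient genome duplication.

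Each of 3 lists of clock, MADS-box and photoperiod loci matched 1 listed gene. Of 33 Arabidopsis clock loci searched, from CCA1, TOC1 and the pseudo-response regulators to GI, ELF3, LUX and the REVEILLE genes, the only one with a listed poplar gene was LHY. Of 38 MADS-box loci, which included SEP2, SEP3, SEP4, AP1, FUL, SOC1, SVP and FLC, it was SEP1. Of 48 photoperiod and flowering time loci it was ELF8, and FT, CO, FD, TFL1, the phytochromes and the cryptochromes had no listed gene. Over the 3 lists, 2 genes had a negative and 1 a positive logFC, beside 51.0% negative over all listed genes. LHY and SEP1 were chosen beforehand, so the lists added only ELF8 and these signs are a description. The tables do not say how many poplar homologues of these loci were tested, so these counts cannot be called low or high. Each poplar gene was matched through 1 Arabidopsis locus, so a gene paired with LHY could not also match its close relative CCA1.

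ELF8 (Potri.006G143300) is the homologue of an Arabidopsis subunit of the PAF1 complex, which travels with RNA polymerase and is needed there for full expression of the floral repressor FLC. In the authors' deposited tables it had a logFC of -0.70, a logCPM of 6.36 and an FDR of 0.0266. It was listed for the transcribed region in CG, over coding sequence, and in CHG, over 5' UTR and coding sequence. It therefore shared the sign of LHY, and its listing covered the context of LHY and that of SEP1.

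The genes most like LHY among the 257 with the same listing, by straight-line distance in logFC and logCPM, came from several functions. The nearest was Potri.002G195200, a homologue of the CLP protease subunit gene CLPP5 of the chloroplast, with a logFC of -0.81 and a logCPM of 4.46 in the authors' deposited table (distance 0.021). Then came Potri.002G135900, with no annotation in the table (distance 0.094), and the homologue of bZIP63 (Potri.005G053200, distance 0.15), a transcription factor of energy signalling in Arabidopsis. For the bZIP63 homologue the authors' deposited table gave -0.80 as logFC and, as for LHY, listed coding sequence alone. The homologue of HS1 (Potri.010G037200), a heat stable protein, was at a distance of 0.23. The median distance over the 257 genes was 2.0.

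Among the 66 genes with the listing of SEP1, the nearest was a homologue of DMS3 (Potri.012G016000). DMS3 is needed in Arabidopsis for RNA-directed DNA methylation. In the authors' deposited table this gene had a logFC of 1.75, a logCPM of 1.86 and an FDR of 0.0369, with the 3' UTR as the feature listed (distance 0.082). The homologue of OTP82 (Potri.005G011000), which acts in chloroplast RNA editing in Arabidopsis, followed with a logFC of 2.11 (distance 0.47). A nucleotide-diphospho-sugar transferase family gene (Potri.002G134400, logFC 1.95, distance 0.55) and a mitochondrial transcription termination factor family gene (Potri.003G190700, logFC 1.85, distance 0.68) were next in the authors' deposited table. The 3' UTR was listed for SEP1 and for these 4 genes, and for 24 of the 66 in all (36.4%). The median distance over the 66 genes was 3.98, and likeness over these 2 values is a description of the listing only.

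Neither gene lay beside another gene listed for its transcribed region. The nearest listed genes to LHY were a DUF3741 gene at 2072 kb before it (Potri.002G160000, logFC 1.17 in the authors' deposited table) and an ADP-ribosylation factor gene at 1048 kb after it (Potri.002G191400, logFC -0.94). For SEP1 they were Potri.008G095100 at 207 kb before it (logFC 2.22 in the authors' deposited table) and a Rab5-interacting family gene at 317 kb after it (Potri.008G102200, logFC 0.95). Both neighbours of SEP1 shared its positive sign, beside 49.0% positive over all listed genes, and the neighbours of LHY had opposite signs. Distances are those between genes listed for a transcribed region, and unlisted genes lie between them. Genes listed for promoters only were not searched, since no coordinates were used for them.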

How the data were processed

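Per the labels, apical buds were pooled per genotype and bisulfite libraries were sequenced on an Illumina instrument. The tools named in the submitters' processing notes are Bismark and methylKit, with no versions, coverage minimum or build given. The 6 tables hold the authors' own comparisons and no column of a single library. The authors deposited logFC and logCPM, read here as log2 values, and a p-value and FDR for expression, from a program not stated. The methylation differences the authors deposited for promoters, a signed score in percentage points, hold neither gene and were not used. Depth is unknown.

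Each gene was taken once over the tables. Ranks leave the gene itself out. Level per kb used the first gene span given for a gene, for the 524 genes with one. Both genes, the lists and the comparisons were chosen with earlier results of these data known. Lists were matched by Arabidopsis locus. Named genes are LHY, SEP1, listed members of the lists, the 4 genes nearest in logFC and logCPM among those in the same tables, and the listed neighbours. No test was run, since there is 1 bisulfite library a genotype and no expression value per sample. The replication behind the authors' expression p-values is not known here. Functions were checked on simulated data. Python 3.11.15, pandas 2.3.3 and SciPy 1.17.1 were used.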

Additional observations from a re-analysis of the deposited data

How the results depend on the processing

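Of 25 other settings, 14 left a value within its 95% Clopper-Pearson interval or, for a count, within 1.5 times, and 11 moved it. The intervals cover counting error only. They treat listed genes as independent draws, although the list is complete and many settings are subsets of it, so they are a yardstick only. Among genes with an FDR below 0.005, 98.4% had a larger absolute logFC than LHY. LHY (FDR 0.0360) and SEP1 (FDR 0.0269) are not in that set, so the filter itself largely sets this share. Within the own logCPM quintile the share with a larger absolute logFC was 83.3% for LHY and 39.1% for SEP1. Without length correction, 56.4% of genes exceeded LHY in logCPM and 94.6% exceeded SEP1. The share of genes with the same sign was 34.4% for LHY and 65.5% for SEP1 at an absolute logFC of at least 1, a size that LHY itself does not reach. Within the own logCPM quintile it was 41.2% for LHY and 69.6% for SEP1. Requiring the same kinds of feature left 105 genes with the listing of LHY and 14 with that of SEP1, the genes themselves included. Fewer genes enter each of the filtered settings, and other causes were not tested. The mean gain of KD2 and KD5 and a ranking among promoter genes were not run, since neither gene is in a promoter table. No paired analysis was possible because each genotype has 1 bisulfite library, and the expression values are given per comparison only and come from no test of this work. No replicate could be left out. Unknown depth limits what either listing can show about the size of the methylation change.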

Other observations

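LHY carries the annotation of a Homeodomain-like superfamily protein in the tables, and 1 other listed gene has the same words, Potri.019G020900. In the authors' deposited tables that gene had a logFC of 1.14, a logCPM of 3.51 and an FDR of 0.0233, so its sign was opposite to that of LHY. It was listed for the transcribed region in CG, over 5' UTR and coding sequence, and in CHH, over coding sequence and 3' UTR. This gene was chosen after its values were seen, and the shared annotation names a fold of the DNA-binding domain, not a role in the clock.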
